A study of Mus musculus with 24 samples.

Results

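The genes described here are the nuclear genes of oxidative phosphorylation together with the creatine kinases, in 8 tissues of mice that carry the human long noncoding RNA gene SENCR on a bacterial artificial chromosome (SENCR-BAC). Members were chosen by symbol alone: every gene whose name marks it as a subunit or assembly factor of complexes I to IV (NDUF, SDH, UQCR and CYC1, COX4 to COX8), cytochrome c (CYCS), the ATP synthase (ATP5) or a creatine kinase (CKMT, CKB, CKM). The rule took 48 of the 7493 genes in the table: 15 complex I subunits, 9 ATP synthase subunits, 7 complex III subunits, 6 cytochrome c oxidase subunits (NDUFA4 counted among them), 4 assembly factors, 4 creatine kinase genes, 2 complex II subunits and cytochrome c. The muscle cytosolic creatine kinase CKM was not analysed here. Bulk RNA sequencing covered brain, heart, liver, stomach, kidney, spleen, aorta and lung, with 3 libraries from each, described as biological triplicates. All 24 libraries carry the transgene. No group without it is named, so nothing here bears on the effect of SENCR. The labels give neither age nor sex nor which libraries came from the same animal, and p-values measure the spread between these libraries.

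Oxidative phosphorylation takes place in the inner mitochondrial membrane, where complexes I to IV pass electrons to oxygen and pump protons, and the ATP synthase uses the returning protons to make ATP. Creatine kinases move the high-energy phosphate of ATP onto creatine, and mitochondrial creatine kinases do this at the site where ATP leaves the mitochondrion. Heart muscle is rich in mitochondria, and the sarcomeric mitochondrial creatine kinase is known as a gene of heart and skeletal muscle.

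Values are FPKM, fragment counts scaled by gene length and by library size, and a difference is on the scale of log2(FPKM + 1), which understates the change of low genes. The reads came from mouse tissue but were counted on a human genome build under human gene symbols. A single gene is therefore set only against itself in another tissue, never against another gene. Sums over genes, where given, also depend on how well the reads of each gene match the human build. Read numbers recovered from the steps in the values came to 185724 to 628043 per library, and replicate libraries of a tissue correlated at r = 0.949 to 0.973 across genes. Labels were checked against marker lists: the summed level of 11 measured cardiomyocyte genes was 50294 to 60438 FPKM in heart and at most 96.8 FPKM in the other tissues apart from lung (972 to 1287 FPKM). The summed neuron, hepatocyte and kidney tubule lists were likewise highest in brain, liver and kidney. HAO1 made up most of the hepatocyte sum in liver, at a mean of 1938 FPKM. KCNJ1 made up most of the kidney tubule sum in kidney, at a mean of 1497 FPKM. FGA, CPS1, ASS1, HAO1 and CYP2E1 had their highest mean in liver, but ALB and APOA1 did not. ALB had a mean of 0.752 FPKM in liver and 13.02 FPKM in aorta, and APOA1 of 0 and 1.85 FPKM. The smooth muscle list, which holds genes that heart muscle also uses, such as DES and TPM1, summed to 1200 to 1447 FPKM in aorta. It summed to 18940 to 21092 FPKM in heart and 1230 to 1601 FPKM in stomach, so this sum does not set aorta apart. Of the lung epithelium list only NKX2-1 was measured, at a mean of 216 FPKM in lung and at most 0.724 FPKM elsewhere. For stomach and spleen no marker passed the filter on low values, so those labels could not be checked this way.

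Most members were barely seen. A gene entered the tests if it reached 1 FPKM in at least 3 libraries, which 17 of the 48 members did (35.4%), against 4260 of all 7493 genes (56.9%). The 17 comprised 6 complex I subunits, 5 ATP synthase subunits, 3 creatine kinase genes and 1 gene each of complex III, cytochrome c oxidase and the assembly factors. They held 133265 recovered reads, whereas the smallest whole numbers that fit the 31 remaining members came to 62 reads. A gene above 0 in a single library always comes out at 1 read in this way, so 62 is a lower bound. Of all members, 24 of 48 (50%) were above 0 in a single library, against 20.4% of all genes.

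Those single values sat mostly in the aorta. Of the 24 members, 12 were seen only in aorta replicate 1 and 5 only in aorta replicate 3, none only in aorta replicate 2, and 7 elsewhere. Among all genes, 469 of the 1528 seen in a single library were seen in aorta replicate 1. Another 44 were seen only in aorta replicate 2 and 109 only in aorta replicate 3. SDHB, the iron-sulphur subunit of complex II, was listed at 2.37 FPKM in aorta replicate 1 and at 0 in the other 23 libraries. UQCRH, the hinge protein of complex III, was listed at 10.5 FPKM there and at 0 elsewhere. CYCS, cytochrome c itself, was listed at 1.77 FPKM there and at 0 elsewhere. COX6B1, a cytochrome c oxidase subunit, was listed at 17.5 FPKM in heart replicate 3 only. SDHA, the flavoprotein subunit of complex II, was above 0 in 11 libraries but never above 1.42 FPKM. A value of 0 is therefore no sign that a gene is silent, and the account that follows rests on the 17 members that were kept.

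**Figure D1:**
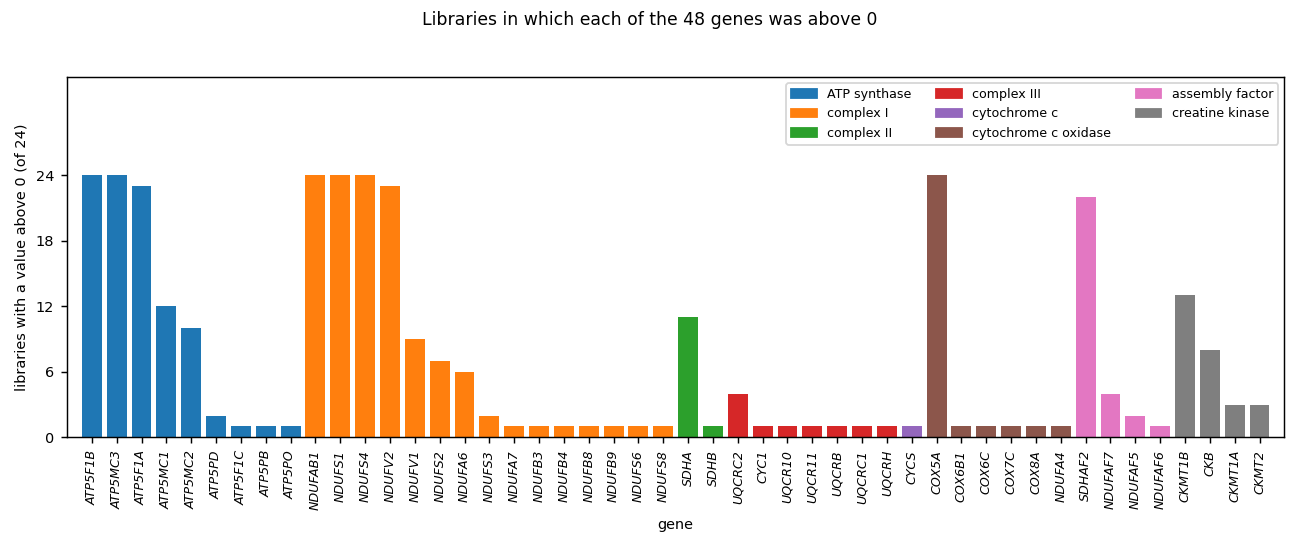
Number of libraries, of 24, in which each of the 48 genes had a value above 0. Bars are single genes, coloured by complex; 24 bars stand at 1 library, and ATP5F1B, ATP5MC3, NDUFAB1, NDUFS1, NDUFS4 and COX5A reach all 24.

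ATP5F1B, the catalytic beta subunit of the ATP synthase, was highest in heart, followed by kidney. It stood at 1977, 2154 and 2272 FPKM in the 3 heart libraries. It was at 1528, 1803 and 1692 FPKM in kidney, 1072, 1264 and 1079 in liver, and 865, 990 and 1021 in stomach. It was lower in brain at 442, 508 and 488 FPKM. Spleen had 285, 378 and 471 FPKM, aorta 214, 295 and 222, and lung 200, 245 and 266. Every heart library lay above all 21 others, and the heart mean of 2134 ± 149 FPKM (SD, n = 3) was 9.02 times the lung mean of 237 ± 33.8. Against the mean of the other 7 tissues heart was higher by 1.91 (SE 0.12, adjusted p = 6.54e-11 by limma). Heart and kidney, neighbours in the order, differed by 0.35 (adjusted p = 0.0873 by limma), and liver and stomach by 0.25 (adjusted p = 0.276 by limma). Lung and aorta at the lower end differed by 0.04 (adjusted p = 0.966 by limma).

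The c-ring subunits, which turn as protons pass, come from several genes that encode the same mature protein. ATP5MC3 was by far the best covered member, with 108143 of the recovered reads. Its levels in heart were 9579, 12671 and 10884 FPKM. Kidney had 5190, 5360 and 5508 FPKM, liver 5320, 5491 and 4672, and stomach 3358, 3701 and 4640. Aorta was at 1792, 1718 and 1517 FPKM, brain at 1451, 1414 and 1238, lung at 1127, 1082 and 1096, and spleen at 875, 1164 and 1025. Heart did not overlap any other tissue and was higher than the mean of the rest by 2.30 (SE 0.09, adjusted p = 9.00e-14 by limma). The heart mean was 2.06 times that of kidney, a difference of 1.04 (adjusted p = 7.88e-07 by limma) that lies close to the minimum difference of 1 used for a call.

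ATP5MC1, another c-ring gene, was at 43.5, 55.8 and 53.0 FPKM in heart. Outside heart its highest values were 27.9 and 11.5 FPKM in stomach replicates 2 and 3, and it was listed at 0 in all 6 spleen and lung libraries. It rested on 51 reads in all. Heart was higher than the mean of the rest by 4.44 (SE 0.73, adjusted p = 5.77e-05 by limma), and the heart mean was 3.86 times that of stomach. ATP5MC2, the third gene of the set, had 18 reads and no value above 3.60 FPKM, and it passed the test in no tissue against the mean of the rest. Its heart difference was 0.47 (adjusted p = 0.416 by limma). ATP5F1A, the alpha subunit that pairs with the beta subunit, had 4.39, 12.1 and 16.5 FPKM in heart and at most 8.54 FPKM elsewhere, so that 2 of 3 heart libraries stood above all others. Its heart difference was 1.55 (SE 0.42, adjusted p = 0.00569 by limma), which lost the call without heart replicate 3 (adjusted p = 0.0707 by limma).

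A stretch upstream of the mouse Atp5g3 start site is shown because PPARGC1A, ESRRA and ESRRG, whose levels are given further on, bind estrogen-related receptor (ERR) sites or work through the factors that do. The promoter table covers 250 bases before to 50 bases after each start and comes from RefSeq, mouse build GRCm38.p6. It held 14 of the 17 kept members, and 9 of the 11 genes called higher in heart. Sequences run 5′ to 3′ along the gene's strand. The capitals in the Atp5g3 stretch, chr2:73911335-73911413 on the minus strand, mark the reverse complement of TCAAGGTCA, the 9-base ERR half-site, at 52 to 44 bases before the start. The capitals in the Ckmt1 stretch, chr2:121357562-121357638 on the plus strand, mark the reverse complement of the shorter AAGGTCA. Ckmt1 is the 1 mouse gene that answers to the human pair CKMT1A and CKMT1B. The capitals in the Ckmt2 stretch, chr13:91876976-91877135 on the minus strand, mark E-boxes, CANNTG, which read alike on both strands.
Atp5g3 (ATP5MC3): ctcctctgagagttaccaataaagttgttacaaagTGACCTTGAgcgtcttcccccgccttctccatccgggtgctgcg
Ckmt1 (CKMT1B): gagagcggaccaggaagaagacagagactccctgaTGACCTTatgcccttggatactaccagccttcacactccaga
Ckmt2 (CKMT2): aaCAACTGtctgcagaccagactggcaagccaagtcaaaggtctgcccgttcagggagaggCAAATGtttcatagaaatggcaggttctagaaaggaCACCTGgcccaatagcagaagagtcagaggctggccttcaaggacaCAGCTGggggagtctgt

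Searched on both strands, TCAAGGTCA was in the window of 126 of 27025 genes (0.466%) and, among the 14 members, in that of ATP5MC3 alone. AAGGTCA, which the longer form contains, was in 5.38% of genes and in 2 of the 14 members, ATP5MC3 and CKMT1B. The NRF1 core GCATGCGC was in 3.05% of genes and in ATP5MC2 and NDUFA6, neither of them called in heart. The MEF2 site was in 0.636% of genes and in CKB alone of the members. At least 1 E-box was in 75.0% of genes and in 10 of the 14 members. The Ckmt2 window held 4 E-boxes before the start, as many as or more than which 4.44% of genes had. These matches describe letters in a window and were not tested against expression.

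Complex I, which takes electrons from NADH, showed the same leading tissue in its well-covered subunits. NDUFS1, the largest iron-sulphur subunit, was at 105, 114 and 122 FPKM in heart. It was at 66.3, 76.5 and 76.3 FPKM in kidney, 40.2, 61.2 and 47.7 in liver, and 29.3, 38.1 and 34.6 in stomach. Brain had 20.9, 22.6 and 16.2 FPKM, spleen 13, 9.48 and 13.7, aorta 8.19, 10.9 and 8.40, and lung 7.91, 8.04 and 9.88. The 3 heart libraries were above the other 21, and heart exceeded the mean of the rest by 2.32 (SE 0.14, adjusted p = 8.37e-11 by limma). The heart mean was 13.2 times that of lung. Heart and kidney differed by 0.63 (adjusted p = 0.0134 by limma), short of the minimum of 1.

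NDUFS1 and ATP5F1B stood in the identical order over the 8 tissues: heart, kidney, liver, stomach, brain, spleen, aorta, lung. Across the 8 tissue means on the log scale their Pearson r was 0.993 and their Spearman rho was 1. This is a description of values that share the same libraries and the same depth. Over the 15 pairs that 6 members seen in all 24 libraries form, r ran from 0.473 to 0.993 with a median of 0.800. The low end was ATP5F1B with NDUFS4, a complex I subunit that was high in stomach and low in liver.

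NDUFAB1, the mitochondrial acyl carrier protein and a complex I subunit, departed from that order. Its heart values were 799, 1270 and 1261 FPKM. Kidney had 308, 323 and 354 FPKM, aorta 274, 337 and 181, stomach 164, 296 and 326, and liver 161, 385 and 133. Brain had 95.7, 125 and 142 FPKM, spleen 84.0, 77.3 and 121, and lung 75.7, 149 and 45.7. Heart was above every other library and higher than the mean of the rest by 2.69 (SE 0.30, adjusted p = 4.88e-07 by limma). Aorta, which was near the bottom for NDUFS1 and ATP5F1B, exceeded lung in NDUFAB1 by 1.66 (adjusted p = 0.00508 by limma) and spleen by 1.46 (adjusted p = 0.00690 by limma).

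The other complex I subunits were thinner. NDUFS4, an accessory subunit, had 35.3, 98.7 and 98.4 FPKM in heart and 57.2, 34.6 and 50.4 in stomach, so heart replicate 1 fell within the stomach range. Heart exceeded the mean of the rest by 1.88 (SE 0.44, adjusted p = 0.00185 by limma). NDUFV2, a subunit of the NADH-binding module, had 18.5, 16 and 46.9 FPKM in heart but also 25.8 in aorta replicate 1 and 28.1 in stomach replicate 1. Its heart difference of 1.84 (adjusted p = 0.0306 by limma) lost the call when any 1 heart library was left out (adjusted p from 0.0503 to 0.188). NDUFV1, its partner that binds FMN, had 0, 3.56 and 7.31 FPKM in heart, and its difference of 1.26 did not pass (adjusted p = 0.0571 by limma). It was called with median-ratio scaling, quantile normalization or a replicate block, and without heart replicate 1, lung replicate 2, liver replicate 2 or kidney replicate 2. NDUFA6 had 12 reads in all and its heart difference was 0.32 (adjusted p = 0.695 by limma).

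**Figure D2:**
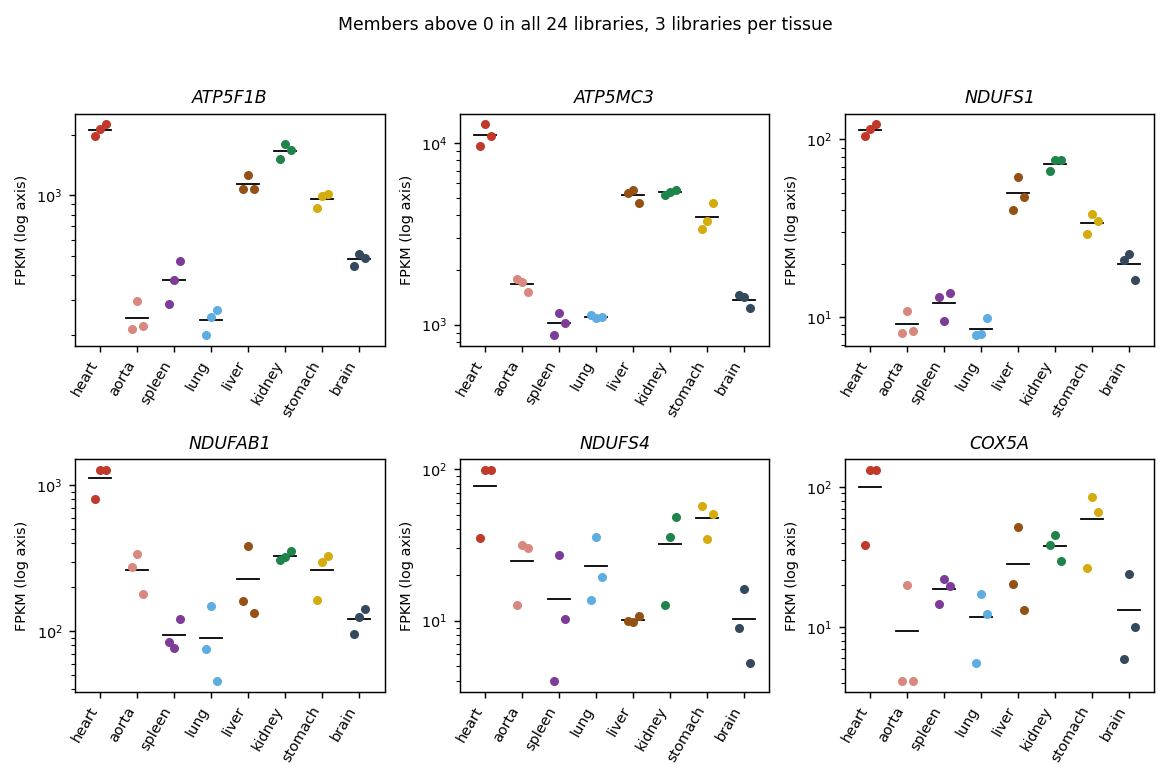
FPKM (log axis) of the 6 members above 0 in all 24 libraries, by tissue. Points are libraries and bars are means of 3; heart lies highest in all 6 panels by its mean, and for ATP5F1B, ATP5MC3, NDUFS1 and NDUFAB1 no other library reaches it.

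Complexes II to IV left few measurable genes. COX5A, a nuclear subunit of cytochrome c oxidase, was at 38.3, 132 and 131 FPKM in heart and at 26.2, 84.6 and 66.3 in stomach, so these tissues overlapped. Kidney had 38.5, 45.2 and 29.4 FPKM, and liver 20.4, 51.5 and 13.2. Spleen had 14.7, 22.1 and 19.6 FPKM, brain 5.87, 23.9 and 10.05, lung 5.54, 17.2 and 12.4, and aorta 4.11, 19.8 and 4.11. The heart difference was 2.16 (SE 0.48, adjusted p = 0.00113 by limma). SDHAF2, the assembly factor that puts FAD into SDHA, was at 21.3, 32.8 and 24.03 FPKM in heart, above all 21 other libraries, of which the highest had 15.7. Its heart difference of 2.00 (SE 0.63, adjusted p = 0.0147 by limma) lost the call without heart replicate 2 (adjusted p = 0.0751 by limma). UQCRC2, a core subunit of complex III, had 4 reads and passed no call. The tissue-specific partners COX4I2, COX6A2 and COX7A1 were not analysed here.

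Over the 17 members, heart was therefore the leading tissue: 12 of them, CKMT2 included, had their highest mean there. The share of all genes with their highest mean in heart was not computed. Against the mean of the other 7 tissues, 11 members were called higher in heart, where 6.41% of all genes tested were, and 1 was called lower, where 17.4% of all genes were. CKMT2 had entered only through heart. Of the 16 members that reach the filter in the 21 libraries of the other tissues, 10 were called higher in heart, against 242 of 4180 genes (5.79%) that do so, a restriction chosen after the data were seen. A gene was called where its difference reached 1 or more and its adjusted p was below 0.05. The 11 were ATP5F1A, ATP5F1B, ATP5MC1, ATP5MC3, CKMT2, COX5A, NDUFAB1, NDUFS1, NDUFS4, NDUFV2 and SDHAF2, and the gene called lower was CKMT1B. The median difference of the 17 was 1.88, also with members at 0 set to 3 reads, against -0.44 over all 4260 genes. That median of all genes moved between -0.18 and -0.57 with other scalings. The split of all genes called in heart, 273 higher and 743 lower, became 426 and 400 with median-ratio scaling and 426 and 358 with quantile normalization. The number of members called higher in heart ran from 9 to 12 under the other settings and from 8 to 12 with any 1 library left out. CKMT2 is not tested when a heart library is left out. In 7 of the 11, which were called from these same values, all 3 heart libraries were above the other 21. CKMT2 is among them, as follows from how it met the filter. The matching share over all genes was not computed.

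Heart replicate 1 was the lowest heart library for 10 of the 11. The ratio of replicate 1 to the mean of heart replicates 2 and 3 was 0.291 for COX5A, 0.307 for ATP5F1A, 0.358 for NDUFS4 and 0.631 for NDUFAB1, but 0.888 for NDUFS1 and 0.893 for ATP5F1B. Over the 2434 genes seen in all 3 heart libraries, the median of this ratio was 1.01 and replicate 1 was lowest for 29.1%. What sets this library apart for these genes was not tested.

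Set against each tissue alone, heart had a larger share of members than of all genes called higher in all 7 cases. Against brain 11 of 17 were higher (all genes 7.44%) and 1 lower (27.9%). Against lung the count was 10 higher (5.75%) and 1 lower (23.8%), and against aorta 9 higher (6.50%) and 0 lower (16.2%). Spleen gave 8 higher (10.7%) and 0 lower (21.5%), liver 7 higher (10.9%) and 0 lower (15.4%), and stomach 7 higher (7.16%) and 1 lower (17.4%). Kidney gave the fewest, with 5 higher (7%) and 1 lower (19.2%). By the median member difference from heart, however, liver (1.08) and stomach (1.16) were closer than kidney (1.21). The 1 lower gene was CKMT1B each time, and each count of higher members includes CKMT2. Called higher in heart than in each of the other 7 were 4 members, ATP5MC1, ATP5MC3, CKMT2 and NDUFAB1, where 70 of 4260 genes (1.64%) were. Of genes that reach the filter in the other 21 libraries, 3 members, CKMT2 being the one that falls away, and 44 of 4180 genes (1.05%) were so called. The count of 4 was 2 without heart replicate 1, 1 without heart replicate 2, 2 without heart replicate 3, and in each of these 3 fits CKMT2 was no longer tested. It was 2 when the values were rescaled to TPM.

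Beside these counts, the summed level of the kept members was 14948 ± 2006 FPKM in heart (SD, n = 3), which is 5.09% of all FPKM there. The sum was 7605 ± 287 FPKM in kidney (2.68%), 6649 ± 655 in liver (2.20%) and 6633 ± 822 in stomach (1.98%). It was 2304 ± 116 FPKM in brain (0.904%), 2251 ± 240 in aorta (0.638%), 1559 ± 238 in spleen (0.464%) and 1514 ± 60.9 in lung (0.495%). ATP5MC3 makes up most of each sum, and the creatine kinase gene CKMT1B holds 1321 FPKM of the stomach sum. In bulk tissue, more cells rich in mitochondria and more RNA of these genes per cell cannot be told apart.

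Kidney followed heart in summed level. By the median member difference from the other 7, however, stomach (0.59) stood above kidney (0.41). In kidney 4 members were called higher than the mean of the other 7 (all genes 9.77%), namely ATP5F1B by 1.51, NDUFS1 by 1.60, ATP5MC3 by 1.12 and CKMT1B by 3.03. Only CKMT2 was called lower (all genes 8.12%). Liver had 1 member higher (9.81%), ATP5MC3 by 1.05, and 3 lower (17.3%), CKMT1B, CKMT2 and NDUFS4. The NDUFS4 call in liver was lost without any 1 liver library (adjusted p from 0.0857 to 0.105 by limma). With median-ratio scaling the ATP5MC3 difference was 0.91 in kidney and 0.99 in liver, short of a call. In stomach 4 were higher (7.65%), CKMT1B, COX5A, NDUFA6 and NDUFS4, and 1 lower (5.87%), CKMT2. The calls of COX5A, NDUFA6 and NDUFS4 in stomach had adjusted p from 0.0435 to 0.0497 by limma. NDUFA6 falls outside the rule for named genes and was named after its values were seen. All 3 calls were lost without filtering on low values, so that only CKMT1B remained, and each was lost without stomach replicate 3 (adjusted p from 0.138 to 0.171 by limma).

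Aorta, spleen and lung each had 6 members called lower. In aorta 0 members were higher (9.58%) and 6 lower (8.19%), and in spleen 0 were higher (11.5%) and 6 lower (13.5%). In lung 1 was higher (11.9%), CKMT1B, and 6 were lower (3.64%). NDUFS1 was called lower in all 3 of these tissues, with differences of -1.69 in aorta, -1.28 in spleen and -1.77 in lung. In aorta the lower calls of ATP5F1A and COX5A were lost without replicates 1 and 3 (adjusted p = 0.503 and 0.733 by limma), an exclusion chosen after the data were seen. Leaving out aorta replicate 3 alone ended both calls, and aorta replicate 1 alone that of COX5A. In brain 1 member was higher (23.9%), CKMT1B, and 3 were lower (10.5%), ATP5MC3 by a difference of -1.14, NDUFS4 by -1.31 and CKMT2. The ATP5MC3 value in brain was -0.83 with TPM scaling, -0.97 with median-ratio scaling and -0.79 with quantile normalization, short of a call. The NDUFS4 call in brain was lost without brain replicate 1 or 3 (adjusted p = 0.0659 and 0.167 by limma). With members at 0 set to 3 reads, the median member difference was -0.77 in brain, -0.90 in aorta, -0.58 in spleen and -0.92 in lung. It was 0.05 in kidney, 0.45 in stomach and 0.09 in liver, and without that step 0.41, 0.59 and -0.08. The medians over all genes ran from -0.33 in liver to 0.15 in lung. CKMT2 is called lower in each of these 7 tissues because the mean it is set against holds heart. That mean holds heart for every other member too, and heart raises it for genes highest there, such as ATP5MC1, ATP5MC3 and NDUFAB1. Lower calls against a mean without heart were not computed.

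**Figure D3:**
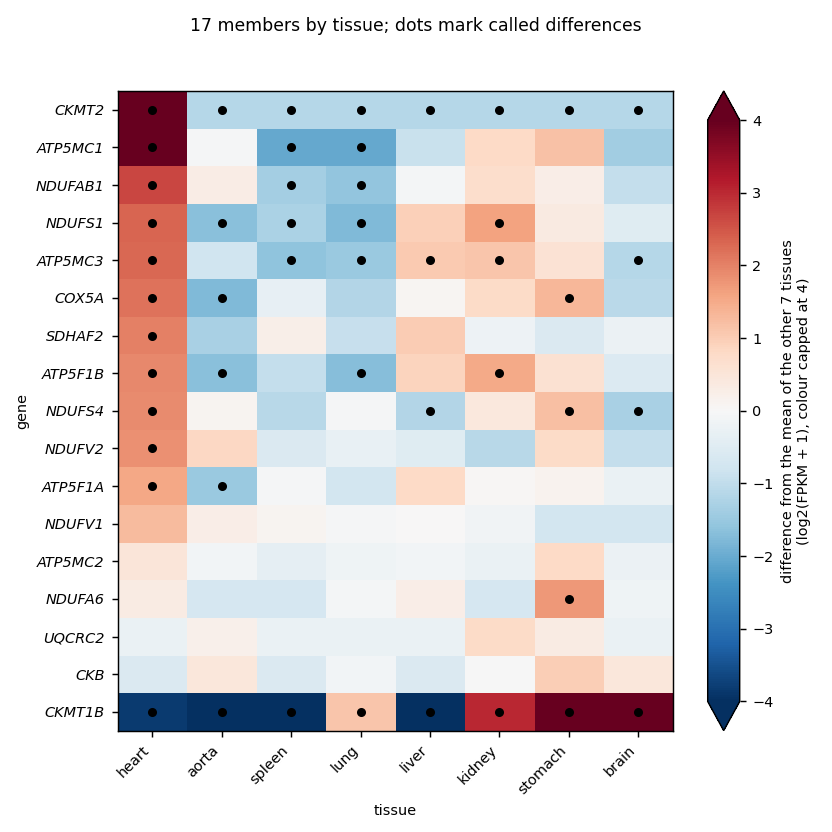
Difference of each tissue from the mean of the other 7 for the 17 kept members, on the log2(FPKM + 1) scale with colour capped at 4. Rows are genes in order of the heart difference, and dots mark calls; 11 dots in the heart column are on the higher side, and CKMT1B at the bottom reverses the pattern.

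The creatine kinases split by tissue. CKMT2, the sarcomeric mitochondrial creatine kinase, was at 195, 248 and 293 FPKM in the heart libraries and was listed at 0 in all 21 others. It rested on 430 reads. At a depth where 3 reads would have been worth 2.79 to 9.43 FPKM in those libraries, the heart mean of 245 ± 49.2 FPKM was at least 27.6-fold higher than liver, the shallowest tissue, and at least 82.7-fold higher than brain. The floor was 3 reads per library. CKMT2 reached the filter on low values through its 3 heart libraries alone, so its call in heart follows from that filter and no test is given for it. Lung, where cardiomyocyte genes summed to 972 to 1287 FPKM and skeletal muscle genes to 47.6 to 155 FPKM, showed no CKMT2 read, with 3 reads worth 3.64 to 3.92 FPKM. That cardiomyocyte sum was mostly ACTC1, at a mean of 1038 FPKM in lung against 48354 in heart. MYH6 was at 29.7 FPKM in lung against 5461 in heart. A CKMT2 level under the floor cannot be told from 0, so these zeros say little about muscle in lung.

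CKMT1B, one of a pair of nearly identical human genes for the ubiquitous mitochondrial creatine kinase, had the opposite map. Stomach stood far ahead at 1446, 1131 and 1385 FPKM. Brain followed at 343, 237 and 253 FPKM, kidney at 113, 63.2 and 79.8, and lung at 34.4, 24.8 and 18.3. Heart had 0, 0 and 1.26 FPKM, and aorta, spleen and liver were listed at 0 in all libraries. The first 4 tissues did not overlap, and heart, aorta, spleen and liver formed a group at or near 0.

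Each step down the order was larger than the spread. Stomach exceeded brain 4.76-fold, a difference of 2.26 (adjusted p = 1.32e-06 by limma). Kidney was below brain by a difference of -1.71 (adjusted p = 4.56e-05 by limma) and lung below kidney by -1.69 (adjusted p = 0.000132 by limma). Heart was below lung by -4.31 (adjusted p = 6.02e-10 by limma), while heart and aorta differed by 0.39 (adjusted p = 0.366 by limma). Against the tissues at 0, with 3 reads per library as the floor, stomach was at least 204-fold higher than liver, at least 417-fold higher than aorta and at least 488-fold higher than spleen. The higher call in lung, of 1.09 against the mean of the rest, was lost without lung replicate 1, where no member was called higher. How reads of the mouse gene were divided between CKMT1A and CKMT1B is uncertain: CKMT1A was listed at 0.904 FPKM in lung replicate 1, 2.85 and 1.26 FPKM in stomach replicates 1 and 2, and 0 elsewhere.

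CKB, the cytosolic brain-type creatine kinase, was nearly unmeasured. It had 10 reads in 8 libraries, with a highest value of 4.96 FPKM in stomach replicate 3 and 0, 1.04 and 2.25 FPKM in brain. No tissue passed the call, and the brain difference was 0.45 (adjusted p = 0.416 by limma). A gene known for its abundance in brain was thus close to absent from this table, and the table says nothing about its tissue order.

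**Figure D4:**
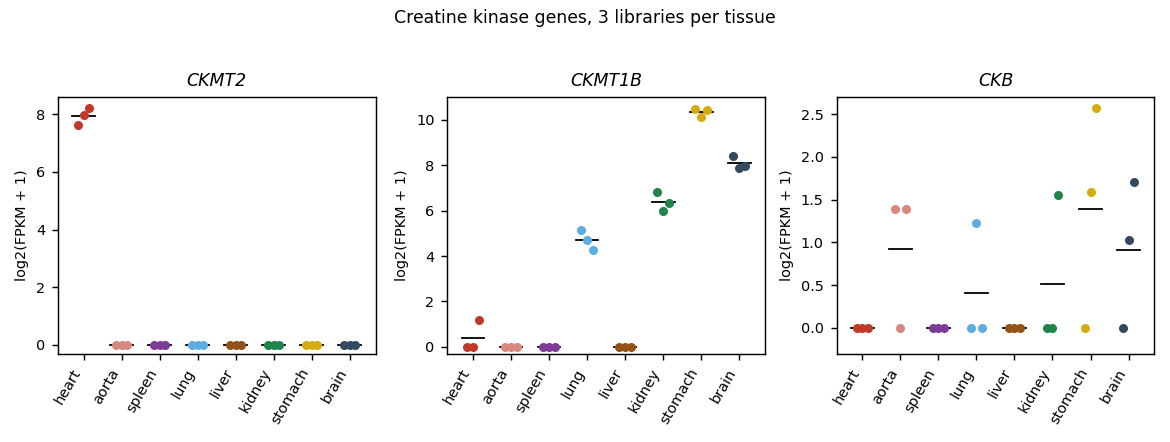
log2(FPKM + 1) of 3 creatine kinase genes by tissue, points being libraries and bars means of 3. CKMT2 is above 0 in the 3 heart libraries alone, CKMT1B runs from stomach through brain and kidney to lung, and CKB is near 0 throughout.

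Genes that make or carry creatine had maps of their own. GATM, which makes the creatine precursor, was at 101, 84.2 and 87.4 FPKM in kidney, higher than the mean of the rest by 5.19 (adjusted p = 1.19e-08 by limma). It was also called higher in brain, by 2.01, and in spleen, by 1.32, and lower in heart, at -1.88. SLC6A8, the creatine transporter, was at 27.0, 23.2 and 36.5 FPKM in kidney and 9.77, 9.65 and 15.6 in heart. It was higher than the mean of the rest by 3.07 in kidney (adjusted p = 2.38e-06 by limma) and by 1.65 in heart (adjusted p = 0.00143 by limma). In heart, 1 of the 2 measured genes of the list was thus higher and 1 lower.

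Fuel-oxidising genes were read from lists of the citric acid cycle and fatty acid oxidation. In heart 3 of 5 measured cycle genes were called higher (all genes 6.41%) and 0 lower (17.4%), with a median of 1.41. OGDH, the E1 subunit of 2-oxoglutarate dehydrogenase, was at 585, 468 and 622 FPKM in heart and 227, 191 and 262 in kidney, the next tissue, with no overlap. It exceeded the mean of the rest by 2.98 in heart (adjusted p = 8.76e-12 by limma) and by 1.5 in kidney (adjusted p = 3.04e-07 by limma). IDH3G, a subunit of isocitrate dehydrogenase, was higher by 1.74 in heart and 1.45 in kidney. DLD had a difference of 1.19 in heart on 10 reads, and it reached the filter only through heart, so its call was fixed by the filter. SUCLA2 and FH were not called in heart.

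Of fatty acid oxidation genes 3 of 15 were kept, and 2 were called higher in heart, again beside 6.41% of all genes. HADHB, the thiolase subunit of the trifunctional protein, was at 120, 152 and 157 FPKM in heart and at most 63.6 FPKM elsewhere, a difference of 5.48 (adjusted p = 7.22e-05 by limma). ETFA, which passes electrons from fatty acid oxidation to the respiratory chain, was higher by 2.16 in heart (adjusted p = 0.00523 by limma). ACADVL was at 0 in heart and at 5.29, 7.77 and 20.1 FPKM in brain, the tissue through which alone it reached the filter.

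The carriers that exchange ATP and ADP across the inner membrane had different leading tissues. SLC25A4, the adenine nucleotide translocator known from heart and muscle, was at 101, 82.9 and 109 FPKM in heart and at most 16.2 FPKM elsewhere, that value in brain. Heart exceeded the mean of the rest by 4.74 (adjusted p = 8.73e-10 by limma). SLC25A5, the more widespread translocator, was at 371, 371 and 408 FPKM in stomach and 314, 379 and 394 in kidney, against 47.3, 102 and 89.4 in heart. It was called higher in stomach (1.73), kidney (1.63) and liver (1.06), lower in aorta (-1.53), and neither in heart. In heart 3 of 7 measured carriers and pores were higher (all genes 6.41%), SLC25A4, the aspartate/glutamate carrier SLC25A12 by 2.02 and the outer membrane channel VDAC3 by 1.44, and 0 lower (17.4%).

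Of 10 measured regulators of mitochondrial genes, PPARGC1A, ESRRA and ESRRG (3 genes) were called higher in heart (all genes 6.41%) and 0 lower (17.4%). In kidney 3 were called higher (9.77%), again by these names, and 1 lower (8.12%), MEF2C at -1.73. The comparisons share libraries, since each tissue is part of the mean the other is set against. PPARGC1A, the coactivator of mitochondrial biogenesis, was at 20.8, 32.0 and 20.8 FPKM in heart and 17.9, 22.5 and 19.1 in kidney. These tissues overlapped and stood above brain (8.89, 11.9 and 13.9) and all others. ESRRA, an ERR, was at 137, 150 and 185 FPKM in heart, 144, 163 and 154 in kidney, and 89.3, 96.4 and 155 in stomach. The remaining 5 tissues had at most 57.6 FPKM.

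ESRRG, a related receptor, was highest in stomach at 95.3, 97.6 and 102 FPKM, followed by kidney at 36.9, 34.6 and 23.2, heart at 19.8, 15.6 and 17.4 and brain at 15.4, 13.3 and 16.7. Aorta, spleen, lung and liver had at most 1.45 FPKM. It exceeded the mean of the rest by 4.38 in stomach (adjusted p = 3.22e-11 by limma), 2.51 in kidney, 1.61 in heart and 1.38 in brain. NRF1 and GABPA, regulators of respiratory genes, were not called in heart.

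**Figure D5:**
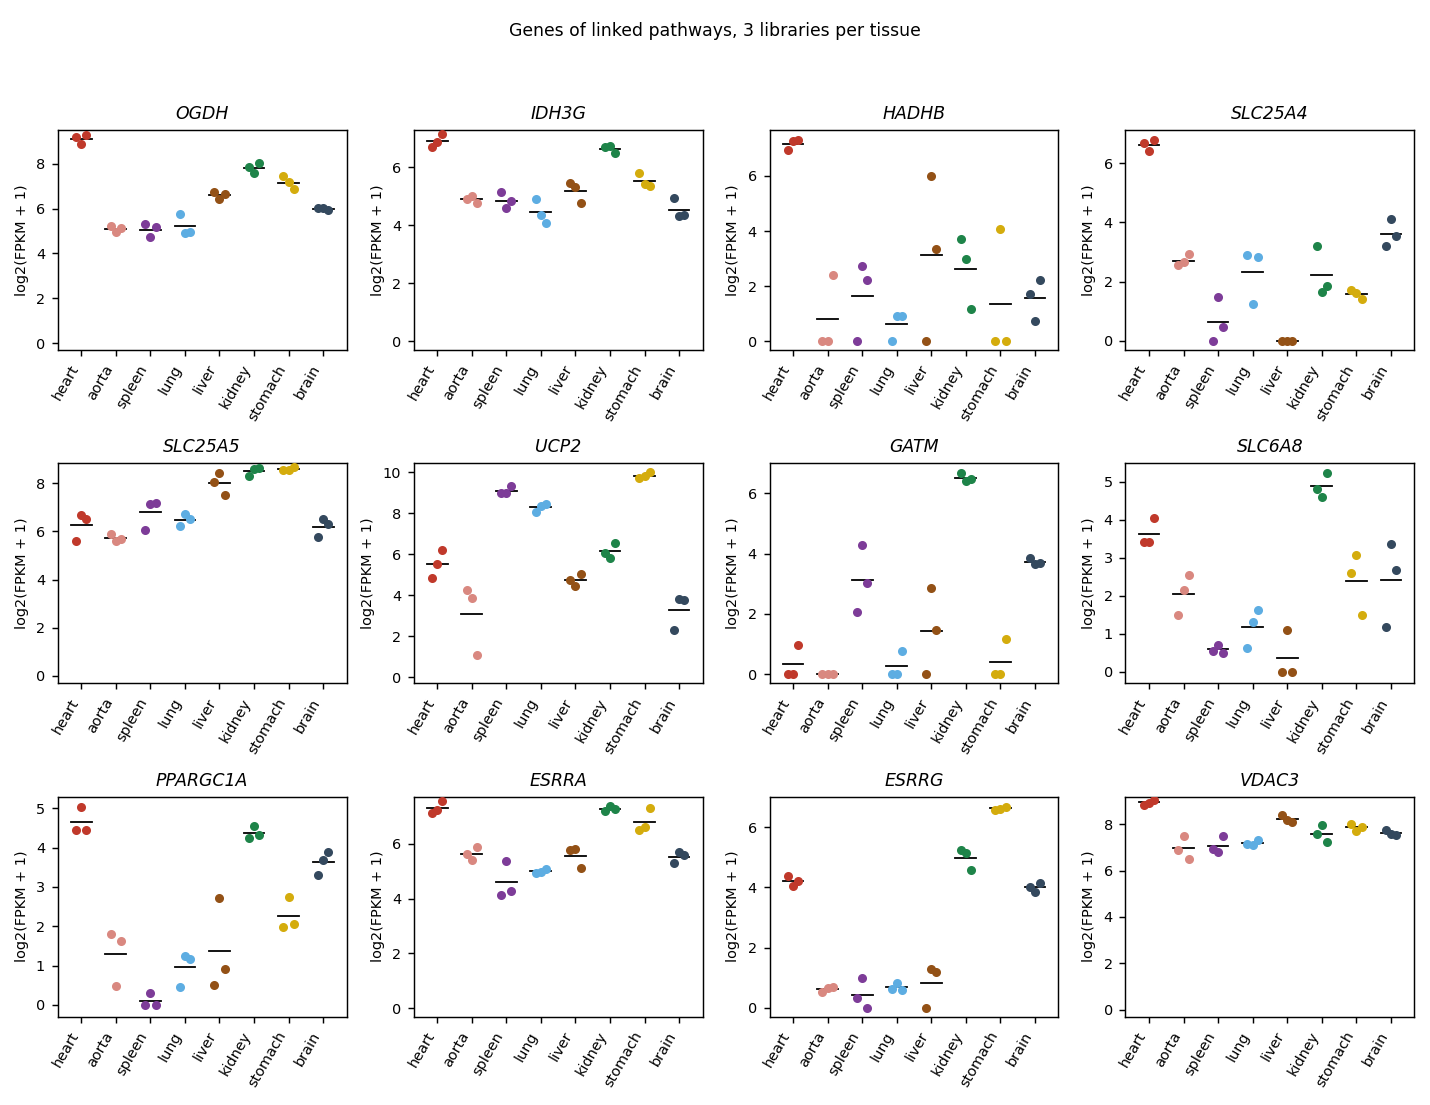
log2(FPKM + 1) of 12 genes from linked pathways by tissue, points being libraries and bars means of 3. OGDH, HADHB, SLC25A4 and VDAC3 are highest in heart, GATM and SLC6A8 in kidney, and SLC25A5, UCP2 and ESRRG in stomach.

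UCP2, an uncoupling protein of the inner membrane, was highest in stomach, spleen and lung. It was at 840, 890 and 1021 FPKM in stomach, 508, 507 and 635 in spleen and 269, 327 and 355 in lung, and at 27.7, 44.7 and 72.7 in heart. Stomach, spleen and lung exceeded the mean of the rest by 4.10, 3.25 and 2.34. Aorta was at 18.3, 13.5 and 1.08 FPKM, a difference of -3.64 (adjusted p = 1.54e-06 by limma), and brain at 3.85, 13.2 and 12.8 FPKM, a difference of -3.37 (adjusted p = 1.08e-06 by limma).

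The mitochondrially encoded subunits, which complete the same complexes, could not be set beside the nuclear ones. Of 13 genes 11 were kept, 0 of them called in heart, and all 11 were called higher in aorta (9.58%), 3 of them, ND3, ND5 and ATP8, having reached the filter through aorta alone. Their summed level in the aorta libraries ran from 10.8 to 838 FPKM, against 21.2 to 28.8 in heart. ND1, for example, was at 73.1, 0 and 45.4 FPKM in aorta. The aorta calls thus rest on the libraries that also held most of the members seen only once, and their part in the aorta values was not tested.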

How the data were processed

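Bulk RNA was measured in 24 mouse libraries, 8 tissues with 3 libraries each. RNA was taken with TRIzol and libraries were made with the VAHTS Universal V10 kit, per the labels' protocols. The tools fastp, HISAT2 and HTSeq and the human build GRCh38.p13 are named in the submitters' processing notes. The sources used here give neither the annotation nor the strand setting. FPKM is the unit the authors deposited. Mouse reads count only where they match the human sequence.

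Genes with at least 1 FPKM in 3 libraries were fitted with limma 3.58.1 (R 4.3.3), with a mean-variance trend, on log2(FPKM + 1), all 8 tissues in 1 fit. P-values were adjusted by Benjamini-Hochberg over 4260 genes. Reads were recovered for 7492 of 7493 genes as the smallest whole numbers that fit (relative tolerance 1e-07), served for depth and a voom alternative, and cover counting error only. On simulated heart data of 4259 genes, changes were planted in genes with a mean of at least 10 reads per library. Of these, 34% of 2-fold and 100% of 4-fold changes were called, and so were 10 unchanged genes. Members with fewer reads, such as ATP5MC1 with 51 over the 24 libraries, are not covered by these shares. Members, lists and tests were chosen with earlier results of these data known. Named with values are the creatine kinases, members called in heart or brain, isoform partners, and the 2 highest members of each complex. Samples were grouped by tissue from the labels. Alternatives were other pseudocounts (0.1 and 5), filters, scalings, voom, a replicate block and leaving out libraries. Promoter letters came from RefSeq. Python 3.11.15 was used.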

Additional observations from a re-analysis of the deposited data

How the results depend on the processing

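The counts called higher in heart (11), lower in heart (1), higher in kidney (4), higher in brain (1) and lower in aorta, spleen and lung (6 each) stayed within 1.5 times under the other settings and with any 1 of 24 libraries left out. Members higher in heart than in each other tissue (4) came to 2 with TPM scaling and to 1 to 4 with a library left out. Members higher in liver (1) came to 2 with a pseudocount of 0.1, TPM scaling, quantile normalization or voom, 0 with median-ratio scaling, 3 by adjusted p alone, and 1 to 2 with a library left out (2 without liver replicate 1). Members higher in lung (1) came to 0 with a pseudocount of 5, median-ratio scaling or quantile normalization, and 0 to 1 with a library left out. Members higher in stomach (4) came to 1 with a pseudocount of 0.1, no filter, TPM scaling, median-ratio scaling or without aorta replicates 1 and 3, 2 with quantile normalization or limma without a trend, and 1 to 5 with a library left out (1 without aorta 1, lung 1, liver 3 or stomach 2, and 2 without any of 11 others). Members lower in brain (3) came to 1 with TPM scaling, 6 with quantile normalization, voom or adjusted p alone, 5 without aorta replicates 1 and 3, and 2 to 5 with a library left out (5 without stomach replicate 1). Members lower in liver (3) came to 1, and in kidney and stomach (1 each) to 0, with a pseudocount of 5 or voom, in kidney and stomach also to 0 without any 1 heart library (0 to 1), because CKMT2, the gene called, then misses the filter. The cause of the other shifts was not tested. The labels do not say whether replicate numbers pair libraries. Same-numbered libraries of different tissues correlated at -0.06 to 0.13 in their deviations (median 0.02, 2 of 84 pairs over 0.1), and others at -0.11 to 0.08 (median -0.02, 0 of 168 over 0.1). With a replicate block 12 members were higher in heart, NDUFV1 being added, and NDUFA6 lost its call in stomach (adjusted p = 0.0639 by limma). Over all genes, brain calls were 1019 higher and 449 lower, and 791 and 851 with quantile normalization. Lung calls were 508 and 155, and 352 and 229 with quantile normalization. Aorta calls were 408 and 349, and 399 and 607 with TPM scaling. Stomach calls were 326 and 250, and 309 and 373 with TPM scaling. Spleen calls were 488 and 576, and 422 and 767 with TPM scaling. Liver calls were 418 and 737, and 495 and 573 with quantile normalization. Single-gene calls in heart, brain, stomach, kidney, aorta and liver were tallied together with the member counts of heart against each tissue alone. Single-gene calls in spleen and lung were not tallied. A gene that missed the filter under a setting was not entered for that setting. Of these entries 1673 stayed the same. A single-gene call was lost in 105 and no tallied single-gene result reversed. The remaining 17 were heart-against-tissue counts that moved beyond 1.5 times.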
